A study of Mus musculus with 12 samples.

Results

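The nuclear genes for aminoacyl-tRNA synthetases were followed through the neuronal differentiation of P19 cells. Members were the 35 synthetase genes of a written list, each found by its symbol among the reads that passed the authors' quality tag and were classed as mRNA. All 35 had reads, out of 14042 genes with reads in the series. Of the members, 19 encode cytosolic synthetases and 16, whose symbols end in 2, encode mitochondrial ones. Mars, which encodes the cytosolic methionyl enzyme, was not on the list and is given beside the members. P19 is a mouse embryonal carcinoma line, here wild type. Undifferentiated cells were the D0 samples, and cells kept in NDiff 227 medium with 500 nM retinoic acid were sampled at D2, D4 and D6. By the paper's account, P19 cells were otherwise grown in DMEM, another medium, to which fetal bovine serum was added. Each comparison with D0 thus also spans a change of medium, and medium and day cannot be told apart. Poly(A) RNA from 3 replicates of each day was read by nanopore direct RNA sequencing, in which the RNA molecule itself is read and 1 read gives both the transcript and its poly(A) tail length. All samples come from this 1 line, and no other differentiation protocol was used as a control.

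An aminoacyl-tRNA synthetase joins an amino acid to its matching tRNA, which then carries it to the ribosome. Cytosolic translation and translation inside mitochondria use separate sets of these enzymes for most amino acids, and both sets are encoded in the nucleus. The enzymes fall into class I and class II by the fold of the catalytic domain. Several cytosolic synthetases are held together in the multisynthetase complex by scaffold proteins (Aimp1, Aimp2 and Eef1e1). Many genes for cytosolic synthetases are targets of ATF4, the transcription factor of the amino acid response, which also drives genes for amino acid synthesis and import. Embryonal carcinoma cells divide fast, whereas neurons have left the cell cycle.

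In all, 4274320 reads on nuclear transcripts were used, from 120326 to 613756 in a library, and D2 was the shallowest day (181932 ± 60407 reads, mean ± SD, n = 3) against 527377 ± 82497 at D0. No sequencing run held more than 1 day, so run and day cannot be told apart. The names of the D0 runs read undifferentiated with the mark D2, and some D6 runs name no day, so libraries were grouped by the labels and the deposited barcode assignment. Transcripts of 3 markers of undifferentiated cells with enough reads to test (Pou5f1, Tdgf1 and Utf1) were lower at D6, and all 6 neuronal markers were higher. The summed level of the undifferentiated list was 1692 to 2019 CPM (reads per 1000000 kept reads, after scaling) in the D0 libraries and 0 to 2.71 at D6, and that of the neuronal list was 455 to 504 and 2163 to 2290. Markers of endoderm, mesoderm, muscle and glia gave 0 to 5.41 CPM per list at D6. The part of this change of cell state in the results that follow was not tested. In such bulk samples, fewer cells of a type and less RNA per cell cannot be told apart.

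The members gathered 13730 reads, 0.321% of those kept. Cytosolic synthetases held 12511 of these reads, from 245 for Hars to 1478 for Kars. Mitochondrial synthetases held only 1219, from 22 for Wars2 to 181 for Rars2. A read was worth 1.85 CPM in the deepest library and 7.84 CPM in the shallowest. No library lacked reads on a cytosolic member. Among the mitochondrial members, 16 of 192 values (16 genes in 12 libraries) were 0 reads. A test needed 30 reads over the 12 libraries, which all 19 cytosolic and 15 of the 16 mitochondrial members had. Wars2, the mitochondrial tryptophanyl enzyme, was not tested.

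The first comparison asked how the members' transcripts accumulated during differentiation. Most cytosolic synthetases fell, and more of them had fallen at each later day. Of the 19, 5 were lower than at D0 by D2, 12 by D4 and 16 by D6, and 0 were higher at any of these days (adjusted p of at most 0.05 by limma-voom, adjusted over all 9309 genes tested). Over all genes, 6.32% were called lower at D2, 12.7% at D4 and 18.2% at D6, while 4.48%, 12.6% and 19.4% were called higher. The median log2 fold change of the 19 was -0.41 at D2, then -0.63 at D4 and -0.92 by D6, while that of all genes tested was -0.05, -0.0017 and 0.02, in the same order. At D6 the median cytosolic synthetase thus stood at 53.02% of its D0 level. Among genes with a mean of at least 20 reads a library, which all 19 members reached, 31% were called lower at D6. Of these 2796 genes, 557 were called in either direction at D2 (60.1% of the calls lower) and 1133 at D4 (51.5% lower). In that set, 7 cytosolic members were lower at D2 and 12 at D4. The D4 count of 12 fell to 6 when every library was thinned to the smallest, to 7 at a mapping quality of at least 10 and to 9 with limma-trend. The D2 count of 5 became 2 thinned, 3 at that mapping quality, 3 with scaling to the library total and 7 with limma-trend. The 3 comparisons share the D0 libraries.

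With each library scaled to its total instead, the median of all genes moved to 0.26 at D6, the share of called genes that were lower went from 48.3% to 30.99%, and 13 cytosolic members were lower. The cytosolic median then lay 0.94 below that of all genes, against 0.93 here, and Farsa and Hars had values just above 0 (0.01 and 0.07). In 15 of the 19, every D6 library was below every D0 library, a pattern that 22.9% of all genes tested showed.

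**Figure D1:**
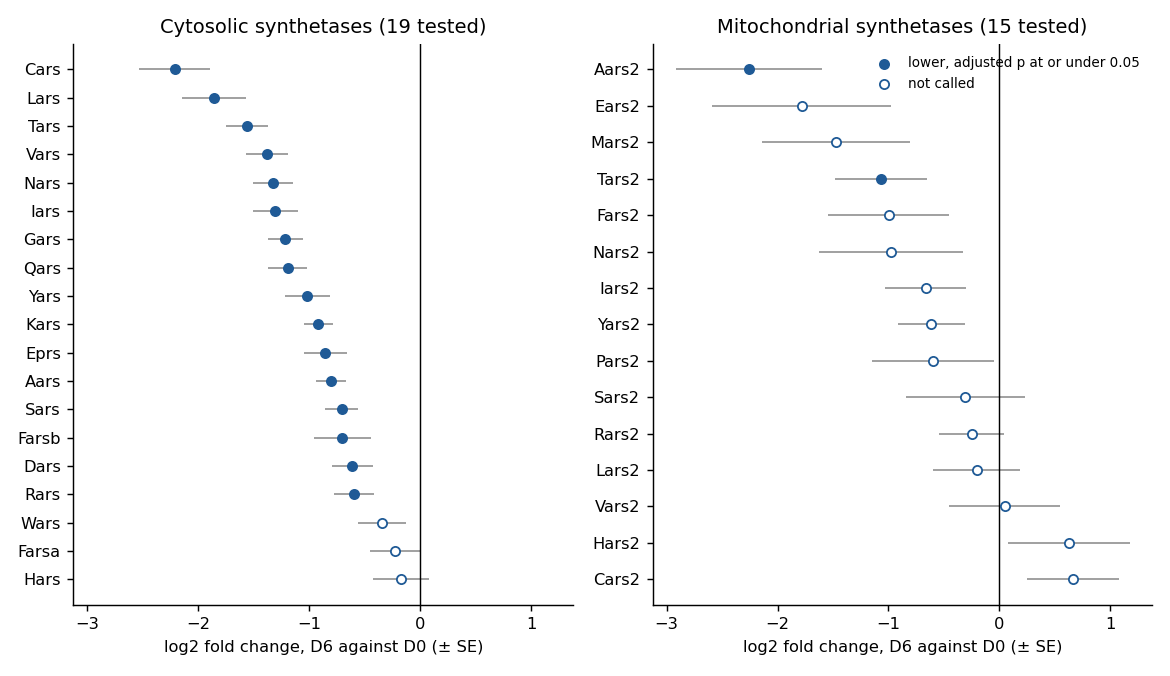
Log2 fold change at D6 against D0 for the 19 cytosolic (left) and 15 tested mitochondrial synthetases (right), with bars of 1 SE from the limma-voom fit. All 19 cytosolic points lie below 0 (17 when scaled to the library total, with Farsa and Hars just above 0) and 16 are filled (called), while the mitochondrial points spread from -2.26 to 0.66 with wider bars and 2 are filled.

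The 5 cytosolic members lower at D2 were Cars, Iars, Kars, Sars and Tars, and all 5 were also called at D4 and D6. A further 7 (Aars, Eprs, Gars, Lars, Nars, Rars and Vars) passed at D4 and D6 but not at D2. Dars, Farsb, Qars and Yars passed only at D6. Without D2 replicate 2, only 2 members were called at D2. Whether the days differ from each other was not tested, and D2 had the fewest reads.

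Summed over the 19 genes, the cytosolic level was 3804, 4229 and 3915 CPM in the D0 libraries, 2626, 3114 and 3106 at D2, 2509, 2552 and 2546 at D4, and 2071, 2034 and 1982 at D6. No D2, D4 or D6 library reached the lowest D0 library, and the D6 libraries were the lowest of all. The mean at D6 was 50.9% of the mean at D0. The summed level of the 16 mitochondrial members was 322, 335 and 340.1 CPM at D0, 251, 345 and 350.5 at D2, 204, 319 and 257 at D4, and 197, 252 and 233 at D6. At D2 the mitochondrial sums overlapped with D0, and at D4 and D6 each was below the D0 libraries. Their D6 mean was 68.3% of the D0 mean. The cytosolic sum was 11.98 ± 0.571 times the mitochondrial sum at D0 and 9.04 ± 1.31 times at D6 (n = 3, mean ± SD). These sums were not tested, because the members were listed with results of these data known.

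**Figure D2:**
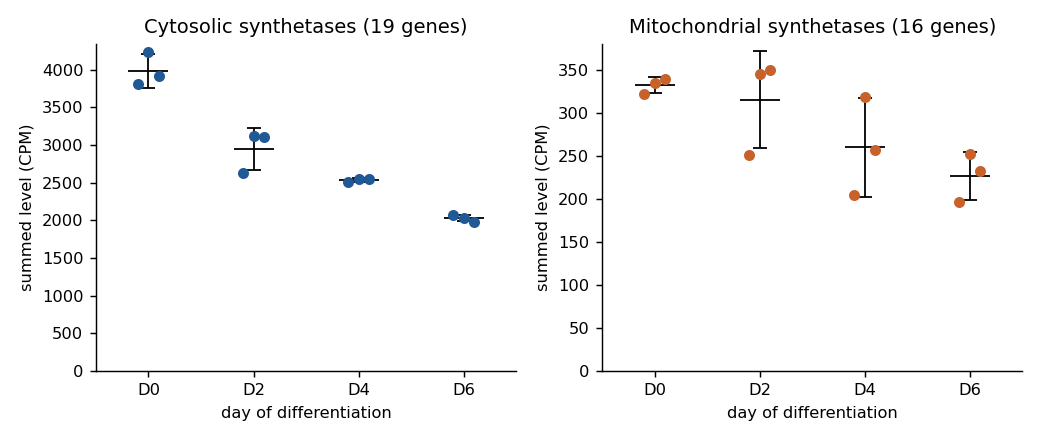
Summed level in CPM of the 19 cytosolic (left) and 16 mitochondrial (right) synthetases in each of the 3 libraries of a day (points), with the mean and 1 SD (bars). The cytosolic sum falls from 3983 to 2029 CPM on average, and the mitochondrial sum from 333 to 227 CPM.

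The largest called change among cytosolic members was that of Cars, which encodes the cysteinyl enzyme (chromosome 7, 143557230 to 143600090 in mm10, on the reverse strand, for the transcript with most reads). Its levels were 123, 128 and 101 CPM at D0 and 44.5, 23.1 and 16.2 CPM at D6. Its log2 fold change (± SE) reached -2.21 ± 0.32 (adjusted p = 6.13e-08). The call was lost at a mapping quality of at least 10 (-2.00), which 16.8% of its reads reached. All D6 libraries lay below all D0 libraries, but only 285 reads were counted over the 12 libraries and the D2 values spread widely, at 39.2, 80.3 and 15.9 CPM. Lars, for the leucyl enzyme of the multisynthetase complex (chromosome 18), stood at 109, 115 and 118 CPM at D0 and 25.98, 31.5 and 32.5 CPM at D6, a log2 fold change of -1.86 ± 0.29 (adjusted p = 2.98e-07). Its D2 libraries were split, with 39.2, 112 and 117 CPM in replicates 1, 2 and 3, so that only the first was below D0. By D4, all 3 were below D0, at 36.7, 25.8 and 44.1 CPM.

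Tars, for the threonyl enzyme (chromosome 15, 11382301 to 11399665, 19 exons), fell in its mean level from 278 ± 38.2 CPM at D0 to 157 ± 17.95 at D2, then 117 ± 32.1 at D4 and 91.2 ± 21.7 by D6 (n = 3, mean ± SD). The D0 libraries held 318, 274 and 241 CPM and the D6 libraries 66.8, 98.6 and 108 CPM. This was a log2 fold change of -1.56 ± 0.19 (adjusted p = 4.15e-10), to 33.9% of the D0 level. Vars, for the valyl enzyme (chromosome 17, 35000987 to 35016322), was at the D0 level at D2, where its 219.5, 229 and 202 CPM overlapped with 223, 220.4 and 214 CPM at D0. It fell later, to 135, 143 and 172 CPM at D4 and 89.1, 94.4 and 67.7 CPM at D6, with log2 fold changes of -0.53 ± 0.16 and -1.38 ± 0.19 (adjusted p = 0.00928 and 8.65e-09). Mars, the methionyl gene outside the list, held 197, 198 and 183 CPM at D0 and 63.1, 56.6 and 62.3 CPM at D6, a log2 fold change of -1.66 ± 0.20 (adjusted p = 6.39e-10).

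Within the multisynthetase complex, all 7 listed synthetases were lower by D6, and their median log2 fold change was -0.92. The 12 cytosolic members outside the complex included 9 that were lower, with a median of -0.91. Both counts stand beside 18.2% of all genes, or 31% of those with a mean of at least 20 reads a library. The calls of Dars and Rars were lost when libraries were scaled to their totals (log2 -0.37 and -0.36), those of Dars, Rars and Eprs when every library was thinned to the smallest (-0.51, -0.44 and -0.75), and that of Kars among reads of high mapping quality (-0.62), where Iars could not be tested. Iars, for the isoleucyl enzyme (chromosome 13, 49682130 to 49734267), fell from 199, 183 and 178 CPM at D0 to 66.8, 85.99 and 67.7 CPM at D6 (log2 -1.30 ± 0.20, adjusted p = 2.35e-07). Its fall was already large at D4, where the log2 fold change was -1.17 ± 0.20. For Qars, the glutaminyl gene (chromosome 9, 108507706 to 108515941), the levels were 249, 222 and 231 CPM at D0, 167, 195 and 183 CPM at D4 and 89.1, 115 and 94.7 CPM at D6. The D4 difference was not called (log2 -0.34 ± 0.15, adjusted p = 0.0889) and the D6 difference was (log2 -1.19 ± 0.18, adjusted p = 8.44e-08).

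Kars, the lysyl gene and the member with the most reads, is known to give both the cytosolic and the mitochondrial enzyme by alternative splicing. Its levels were 427, 522 and 458 CPM at D0, 298, 309 and 350.5 at D2, then 355, 298 and 294 at D4 and 267, 239 and 244 by D6. All later libraries lay below the D0 libraries (log2 -0.92 ± 0.13 at D6, adjusted p = 6.97e-08). Eprs, whose protein joins the glutamyl and the prolyl enzyme in 1 chain, held 159, 150.1 and 168 CPM at D0 and 77.9, 107 and 73.1 CPM at D6 (log2 -0.85 ± 0.20, adjusted p = 3.48e-04). Its D2 libraries overlapped with D0, with 109.8, 169 and 154 CPM. Dars (aspartyl) and Rars (arginyl) had the smallest called changes of the complex, at -0.61 and -0.59 on the log2 scale. The D0 and D6 libraries of Dars overlapped.

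Outside the complex, Nars, for the asparaginyl enzyme (chromosome 18), fell from 235, 276 and 212 CPM to 104, 94.4 and 89.3 CPM (log2 -1.33 ± 0.18, adjusted p = 1.15e-08). That call was lost at a mapping quality of at least 10 (-1.10), which 4.32% of Nars reads reached. Gars encodes the glycyl enzyme for both compartments, through alternative translation starts. It fell from 294, 311 and 288 CPM at D0 to 137, 126 and 122 CPM at D6, and every read on it mapped to 1 transcript (chromosome 6, 55038007 to 55079500). The log2 fold change of Gars was -1.22 ± 0.16 (adjusted p = 3.90e-09). Yars (tyrosyl, chromosome 4, 129189760 to 129219607) was at 142, 193 and 132 CPM at D0 and 74.2, 83.9 and 67.7 CPM at D6 (log2 -1.02 ± 0.20, adjusted p = 4.20e-05), with 131, 136 and 132 CPM at D4 that overlapped with D0.

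Aars and Sars, the alanyl and seryl genes, were with Kars the cytosolic members with the most reads. Aars (chromosome 8, 111033902 to 111057664) held 405, 515 and 439 CPM at D0 and 267, 247 and 265 CPM at D6, a log2 fold change of -0.80 ± 0.14 (adjusted p = 1.89e-06). For Sars (chromosome 3, 108424865 to 108445198) the change came early, from 339, 374 and 424 CPM at D0 to 251, 177 and 271 CPM at D2, and the D6 libraries held 271, 197 and 246 CPM. Its log2 fold changes at D2, D4 and D6 were -0.75, -0.75 and -0.70, with adjusted p of 0.00158, 7.73e-05 and 9.11e-05. The D2, D4 and D6 libraries of Sars were all below D0, and overlapped with each other. The D6 call of Sars was lost when every library was thinned to the smallest (log2 -0.50).

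**Figure D3:**
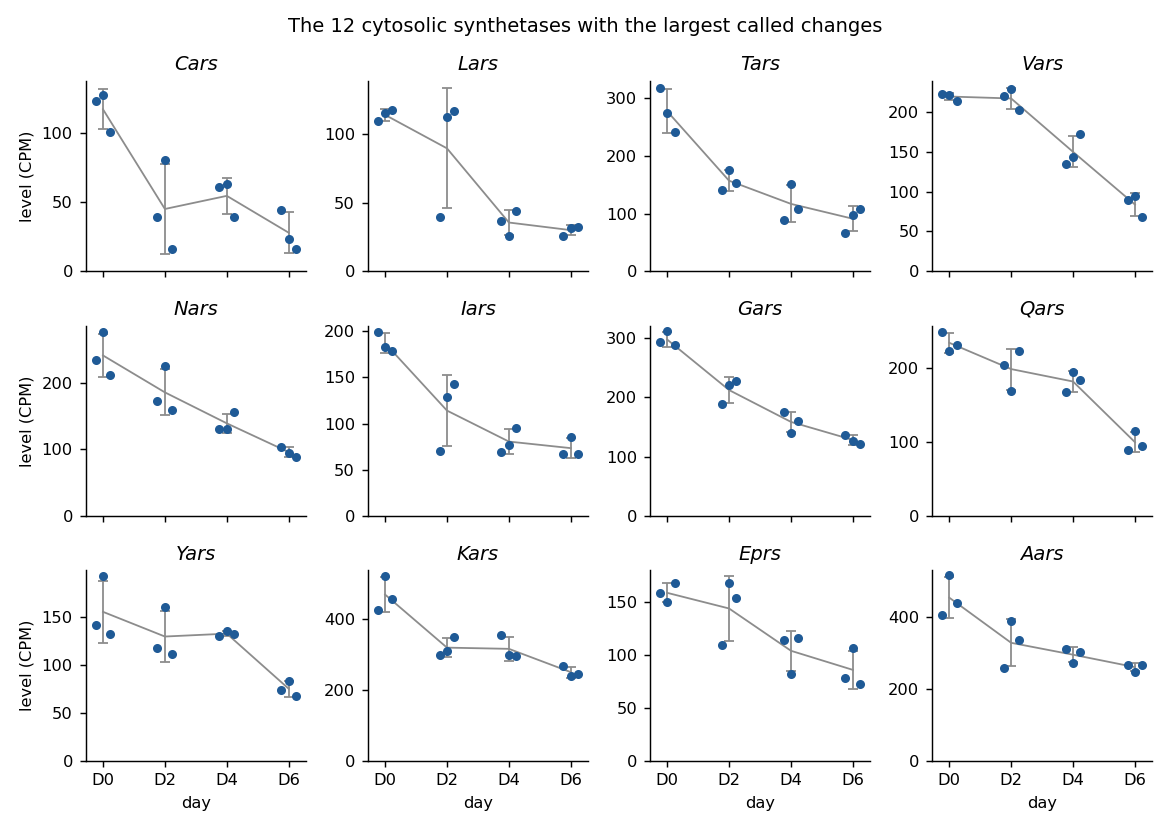
Level in CPM of the 12 cytosolic synthetases with the largest called changes at D6, in each library (points), with the mean of the day (line) and 1 SD (bars). The D2 libraries of Cars, Tars, Gars, Iars, Kars and Aars lie below their D0 libraries. The D2 libraries of Vars overlap with D0, as do replicates 2 and 3 of Lars, while replicate 1 of Lars is lower. Vars and Lars both lie below their D0 libraries at D4 and D6.

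The 3 cytosolic members that were not called at D6 were Hars (histidyl), Farsa (the alpha chain of the phenylalanyl enzyme) and Wars (tryptophanyl). Their log2 fold changes were -0.17 ± 0.25, -0.22 ± 0.23 and -0.35 ± 0.22. The D0 and D6 libraries of each overlapped. Without D0 replicate 1, Wars was called lower (log2 -0.59, adjusted p = 0.027 by limma-voom). Farsb, which encodes the beta chain that pairs with Farsa, was lower (log2 -0.70 ± 0.26, adjusted p = 0.0257), and its call was lost without D0 replicate 3 (log2 -0.68), D6 replicate 1 (-0.62) or D6 replicate 3 (-0.58), and under 4 other settings, among them scaling to the library total (-0.47). Its value was -1.18 after thinning. By class, 7 of 8 cytosolic class I and 8 of 10 class II members were lower, with medians of -1.25 and -0.75. The share over all genes was 18.2%, or 31% of those with a mean of at least 20 reads a library. Eprs spans both classes and is in neither count. The difference between the classes was not tested.

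Mitochondrial synthetases gave few calls. Of the 15 tested, 0 were called at D2, 2 at D4 (Aars2 and Yars2) and 2 at D6 (Aars2 and Tars2), all of them lower. Their median log2 fold change was 0.05 at D2, then -0.30 at D4 and -0.61 by D6, and 12 of the 15 were below 0 at D6, or 11 when scaled to the library total, where Lars2 was at 0.03. Without D0 replicate 3 the D6 median was -0.36. Beside 18.2% of all genes called lower at D6, 2 of 15 is no more than the background. This count depended on the reads kept. With reads of all quality tags, 6 of 16 were lower at D6 (Ears2, Lars2, Mars2 and Yars2 in addition), beside 19.9% of all genes, with a median of -0.81, and 4 were lower at D4. The D4 count fell to 0 without D0 replicate 1, without D4 replicate 3, with limma-trend or after thinning. SEs of the mitochondrial members ran from 0.29 to 0.81 on the log2 scale, against 0.13 to 0.32 for the cytosolic ones. In 9 of the 15 mitochondrial members, 2 SEs were larger than the cytosolic median change. Whether the cytosolic and mitochondrial lists differ was not tested.

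Aars2, for the mitochondrial alanyl enzyme (chromosome 17, 45506841 to 45520843), had 44 reads in all. The D0 libraries held 8, 8 and 11 reads and the D6 libraries 0, 3 and 1, a log2 fold change of -2.26 ± 0.66 (adjusted p = 0.00488). At D4 it held 0, 4 and 3 reads (log2 -1.64 ± 0.60, adjusted p = 0.0369). That call was lost without D0 replicate 1 (-1.59), D0 replicate 3 (-1.46), D4 replicate 1 (-1.08) or D4 replicate 3 (-1.87), and with the replicate number as a block (-1.38, adjusted p = 0.0555). It was also lost with limma-trend (-2.18), with a mapping quality of at least 10 (-1.71) or a barcode confidence of at least 0.75 (-1.54). Scaling to the library total (-1.52) and protein-coding transcripts only (-1.47) ended it too. With limma-trend on log2(CPM + 1), the D6 call of Aars2 was lost (log2 -2.71, adjusted p = 0.0803). Tars2, the mitochondrial threonyl gene (chromosome 3, 95739976 to 95754871), held 15, 15 and 16 reads at D0 and 3, 12 and 3 at D6 (log2 -1.06 ± 0.41, adjusted p = 0.036). The call of Tars2 was lost without D0 replicate 1 (log2 -1.01), D0 replicate 3 (-1.02), D6 replicate 1 (-0.96) or D6 replicate 3 (-0.75), and its value was -1.62 without D6 replicate 2. It was also lost under 8 of the other alternatives, such as scaling to the library total (-0.83).

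Rars2, the mitochondrial arginyl gene and the most read of its list, stood at 33.2, 44.5 and 56.7 CPM at D0 and 33.4, 35.7 and 40.6 CPM at D6 (log2 -0.25 ± 0.29, adjusted p = 0.531), with overlapping libraries. Yars2 (mitochondrial tyrosyl) held 59.2, 62.98 and 33.6 CPM at D0, 24.5, 25.8 and 20.9 at D4 and 33.4, 29.4 and 35.2 at D6. It passed the test at D4 (log2 -1.05 ± 0.34, adjusted p = 0.015) but not at D6 (-0.61 ± 0.30, adjusted p = 0.105), where it was called without D0 replicate 3 (-0.89) and with a barcode confidence of at least 0.75 (-0.84). The D4 call of Yars2 was lost without D0 replicate 1 (-0.93), D0 replicate 2 (-0.87) or D4 replicate 3 (-0.92), with limma-trend (-1.05) and after thinning (-0.71). Iars2 (mitochondrial isoleucyl) was at 33.2, 40.8 and 39.9 CPM at D0 and 11.1, 33.6 and 24.4 CPM at D6, and its log2 fold change of -0.66 ± 0.37 was not called (adjusted p = 0.148). Cars2, Hars2 and Vars2 were the 3 members with log2 fold changes above 0 at D6, at 0.66 ± 0.42, 0.63 ± 0.55 and 0.05 ± 0.50, and none was called. The value of Hars2 lay between 0.032 (without D6 replicate 2) and 1.20 (without D6 replicate 3) with a library left out. Ears2, Mars2, Fars2, Nars2, Pars2, Sars2 and Lars2 ranged from -1.78 to -0.20, and none was called. With reads of all quality tags, however, Ears2 (log2 -2.39, adjusted p = 0.00899), Mars2 (-1.73, adjusted p = 0.0259) and Lars2 (-0.84, adjusted p = 0.027) were lower by limma-voom. Ears2 was also called with no filter on low counts (-1.98) and without D0 replicate 3 (-2.30) or D6 replicate 2 (-2.88), and Mars2 with no filter (-1.60). Of Wars2, 5, 0 and 4 reads were counted at D0 and 1, 1 and 2 at D6.

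For 14 amino acids both a cytosolic and a tested mitochondrial gene were listed. The cytosolic gene had the more negative log2 fold change at D6 for 11 of the 14. The values of Cars and Cars2 were furthest apart (-2.21 and 0.66, a distance of 2.87). Those of Rars and Rars2 were the closest of the pairs whose symbols differ only in the 2 (-0.59 and -0.25, a distance of 0.34), next to Nars and Nars2 (-1.33 and -0.98). The 3 exceptions were alanine, with -0.80 for Aars and -2.26 ± 0.66 for Aars2, glutamate, with -0.85 for Eprs and -1.78 ± 0.81 for Ears2, and phenylalanine, with -0.22 and -0.70 for Farsa and Farsb and -0.9996 ± 0.55 for Fars2. For proline, Pars2 (-0.60 ± 0.55) was set beside Eprs, which then counts under 2 amino acids. These pairs are a description, with no test.

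Reads were assigned to transcripts by the authors, and the members' reads lay on 107 transcripts, all with the same coordinates in GENCODE vM21. Of the members' reads, 89.7% lay on protein-coding transcripts, 6.18% on transcripts marked as targets of nonsense-mediated decay and 3.23% on retained-intron transcripts. The share on decay targets was 6.78% ± 1.85 at D0 and 5.82% ± 0.646 at D6 (n = 3, mean ± SD), a difference within the spread of the libraries. A mapping quality of at least 10 was reached by 60.6% of the members' reads, against 68.4% of all kept reads, and by 0% of the reads on Iars, 4.32% on Nars and 3.45% on Pars2. At a low mapping quality the transcript of a read is uncertain. When only reads of that quality were tallied, Iars could not be tested, and Cars, Farsb, Kars, Nars and Tars2 were no longer called at D6. Their log2 fold changes were then -2.00, -0.55, -0.62, -1.10 and -1.30, from fewer reads.

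For Kars, reads lay on a transcript that encodes 595 residues and on longer forms of 624 residues, which carry the mitochondrial targeting sequence. The shorter form held 48.7% ± 10.4 of these reads at D0, 54.6% ± 2.87 at D2, then 61.6% ± 2.66 at D4 and 50.8% ± 2.98 by D6 (n = 3, mean ± SD). Among reads with a mapping quality of at least 10, it held 88.3% ± 3.54 at D0, 93.1% ± 7.82 at D2, then 82.7% ± 0.861 at D4 and 88.9% ± 7.03 by D6. D4 was thus the highest day over all reads, with each library above every D0 library, and the lowest over reads of high mapping quality, with each library below every D0 library. The level of the share also depended on the mapping quality, and D0 and D6 overlapped under both.

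Promoters were read because ATF4 is known to act at many genes for cytosolic synthetases. Its part in the changes described here was not tested. RefSeq promoters (GRCm38.p6, from 250 bases before to 50 after the annotated start) were read for 25 of the 35 members, 11 cytosolic and 14 mitochondrial. Those of Aars, Cars, Hars, Hars2, Lars, Nars, Pars2, Rars, Vars and Wars were not analysed here. The letters TTGCATCA, a core of the C/EBP-ATF response element that ATF4 binds, were searched on both strands (TGATGCAA on the other). They were in the windows of 3 of these members, all cytosolic (Iars, Tars and Yars), and in 0 of the 14 mitochondrial windows. Of all 32851 promoters in the table, 294 (0.895%) held them. The 30 bases around each match are printed 5′ to 3′ on the gene's strand, with the searched letters in capitals. Bases are counted from the RefSeq start, which for Tars and Yars is not that of the GENCODE transcript named above.
Tars, chr15:11399655-11399684, reverse strand, first capital at base -15 from the start: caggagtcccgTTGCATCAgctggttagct
Iars, chr13:49682126-49682155, forward strand, first capital at base 8 from the start: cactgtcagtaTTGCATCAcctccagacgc
Yars, chr4:129189895-129189924, forward strand, first capital at base 4 from the start, in the other orientation: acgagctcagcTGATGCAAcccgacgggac

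All 3 genes with the letters were lower at D6, with log2 fold changes from -1.56 (Tars) to -1.02 (Yars) and a median of -1.30. Of the 8 other cytosolic genes read, 7 were lower, with a median of -0.78. The values of the sets overlapped and the difference was not tested. Both counts stand beside 18.2% of all genes, or 31% of those with a mean of at least 20 reads a library. The E-box CACGTG was in the windows of Farsb, Iars, Tars and Ears2, and in 7.15% of all promoters. Iars and Tars thus held both the E-box and TTGCATCA. The letters GCGCATGCG (CGCATGCGC on the other strand), a core of the site of NRF1, which controls many genes for mitochondrial proteins, were in the windows of Vars2 and Wars2 and in 1.75% of all promoters. A start with C followed by 4 pyrimidines, the form of terminal oligopyrimidine transcripts, was annotated for 1 of the 25 members (Wars2) and for 2.51% of all promoters. A match is a description of the letters and not evidence of binding.

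The poly(A) tail lengths of the members were compared next. The tail protects a transcript and binds the poly(A)-binding protein. Tails were compared for members with at least 10 reads in every D0 and D6 library, which were 17 cytosolic ones (all but Cars and Lars) and 0 mitochondrial ones. At D0 their median tails averaged from 87.5 nt (Kars) to 127 nt (Iars) over the 3 libraries, with a median of 108 nt over the 17, beside 107 nt over all 3518 genes tested. At D6, 1 of the 17 had a changed median tail, Qars, which was shorter. Over all genes tested, 2.98% were called shorter and 0.483% longer. The median log2 change over the 17 was -0.04, and over all genes 0.05.

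Qars transcripts had median tails of 103, 93.4 and 114 nt in the D0 libraries, 77.3, 76.8 and 71.6 nt at D2, 77.9, 74.3 and 83.2 nt at D4 and 73.00, 74.9 and 81.3 nt at D6. Every later library was below every D0 library, and the D2, D4 and D6 libraries overlapped. These medians rest on 105, 120 and 110 reads at D0 and 24, 55 and 35 at D6. The log2 change was -0.44 ± 0.11 at D6 (adjusted p = 0.0108), -0.46 ± 0.11 at D2 (adjusted p = 0.00465) and -0.40 ± 0.11 at D4 (adjusted p = 0.026). At D6 the call was lost without D0 replicate 1 (log2 -0.44, adjusted p = 0.0581), D0 replicate 3 (-0.36, adjusted p = 0.134) or D6 replicate 1 (-0.41, adjusted p = 0.0641). Only 30.8% of Qars reads had a mapping quality of at least 10, and its reads were too few for a test on those alone.

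Gars was the other member with a call in its median tail. Its tails were 94.8, 112 and 121 nt at D0, 74.2, 76.3 and 70.96 nt at D2, 71.1, 82.6 and 89.9 nt at D4 and 99.3, 89.5 and 102 nt at D6. The change was called at D2 (log2 -0.56 ± 0.11, adjusted p = 7.46e-04) and at D4 (-0.43 ± 0.11, adjusted p = 0.0162) but not at D6 (-0.17 ± 0.11, adjusted p = 0.569). Thus 2 of 13 members tested were shorter at D2 and 2 of 16 at D4, beside 6.02% and 3.61% of all genes tested. The longest median tail difference in the other direction at D6 was that of Dars, from 101 ± 11.2 nt to 128 ± 11.4 nt (log2 0.34 ± 0.13, adjusted p = 0.177), which was not called.

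Tails were also counted in classes under 30 nt and from 30 to 90 nt. The share of 30 to 90 nt tails changed by test in 0 of the 17 members at D6, beside 3.07% of all genes, and 1 member had an unadjusted p under 0.05. The share under 30 nt changed in 0 of the 17, beside 1.11% of all genes, with 0 at an unadjusted p under 0.05. Qars had the largest difference in the middle class, at 14.2 ± 5.35 percentage points (adjusted p = 0.217). At D2 the middle class changed in 2 of 13 members, beside 6.19% of all genes. Dars had 36.4%, 48.5% and 36.4% of its tails there at D0 and 23.5%, 17.9% and 20% at D2, a difference of -19.96 ± 5.95 percentage points (adjusted p = 0.0289). Qars went the other way, with 37.1%, 45.8% and 33.6% at D0 and 57.7%, 54.8% and 57.1% at D2 (17.7 ± 5.35 percentage points, adjusted p = 0.0329). For both genes the D0 and D2 libraries did not overlap, and the D2 shares rest on 17 to 42 reads. At D4 limma called 0 of 16 members in the middle class (2 at an unadjusted p under 0.05), beside 3.25% of all genes. The share under 30 nt was called in 0 of 13 members at D2 and 0 of 16 at D4, beside 0% and 0.46%, with 1 at an unadjusted p under 0.05 on each day. With all reads of the 19 cytosolic genes pooled in a library, the median tail was 106 ± 6.95 nt at D0, 94.5 ± 2.66 nt at D2, then 95.7 ± 4.18 nt at D4 and 102 ± 3.69 nt by D6. All kept reads gave 103 ± 2.67, 97.2 ± 1.05, 96.7 ± 1.52 and 102 ± 1.03 nt. Pooled mitochondrial reads gave 111 ± 11.3 nt at D0 and 120.2 ± 9.56 nt at D6, with overlapping libraries (n = 3 each, mean ± SD).

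**Figure D4:**
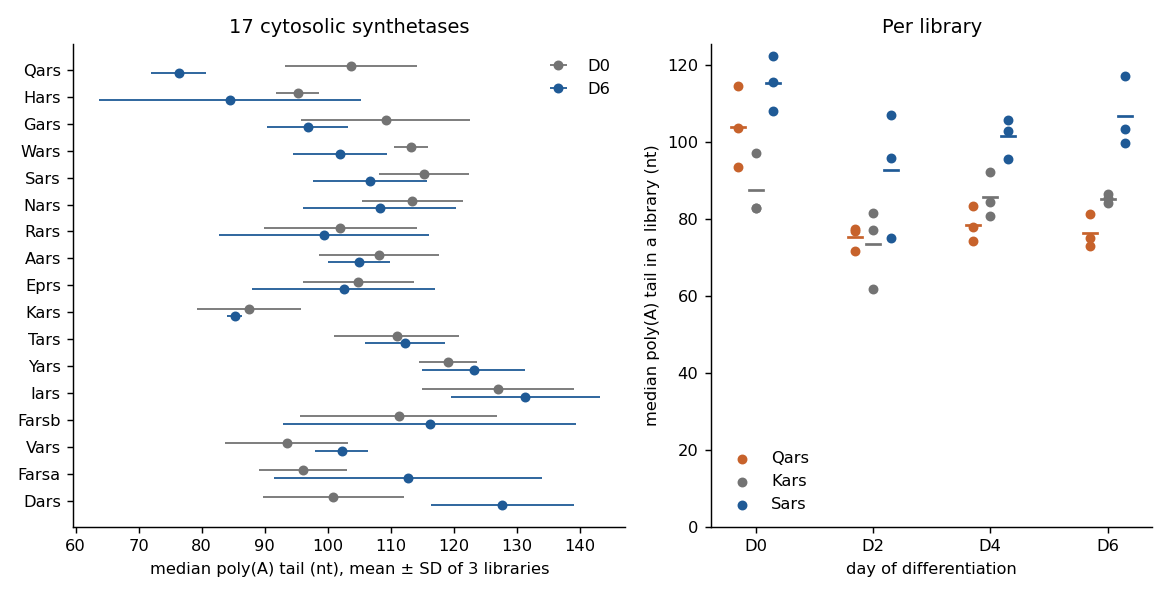
Left, median poly(A) tail in nt of the 17 testable cytosolic synthetases at D0 (grey) and D6 (blue), as the mean and 1 SD of 3 libraries, with Qars at the top. Right, the median tail in each library for Qars, Kars and Sars by day, with the mean as a bar. Qars falls from 104 to 76.4 nt between D0 and D6, while Kars has 87.5 nt at D0 and 85.3 nt at D6.

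The length of the aligned part of the reads was also compared. Its median over the cytosolic members' reads was 1154 ± 206 bases at D0, 1367 ± 296 at D2, then 1686 ± 324 at D4 and 1425 ± 329 by D6, and the D2 and D6 libraries overlapped with D0. Over all kept reads it was 694 ± 40.9 at D0 against 789 ± 41.04 by D6 (n = 3, mean ± SD), without overlap. Its part in the differences was not tested.

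The genes around the synthetases were read from lists written with earlier results of these data known. Among the scaffold genes of the multisynthetase complex, Aimp2 (log2 -1.13 ± 0.21, adjusted p = 8.95e-06) and Aimp1 (-0.43 ± 0.17, adjusted p = 0.0391) were lower at D6. Eef1e1, the third scaffold gene, held 107, 107 and 119.7 CPM at D0 and 163, 128 and 146 CPM at D6. Its D6 libraries were all above its D0 libraries, but the difference was not called (log2 0.36 ± 0.19, adjusted p = 0.12). All 5 tested cytosolic elongation factor genes were lower, with a median of -0.78, among them Eef1a1, which brings charged tRNA to the ribosome (-0.77 ± 0.05, adjusted p = 1.08e-20). Eef1d (-1.28) and Eef1g (-1.07), subunits of its exchange factor, fell most. Of 15 tested genes for tRNA maturation and export, 8 were lower and 0 higher (18.2% and 19.4% over all genes), with Nsun2, a tRNA methyltransferase (-1.52), and Pus7, a pseudouridine synthase (-1.50), furthest down. At D4, 6 of these were lower and 1 was higher, beside 12.7% and 12.6% of all genes (Tsen34, a subunit of the tRNA splicing endonuclease, 0.61).

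The ATF4 pathway was read beside the synthetases. Of its 13 tested genes, 11 were lower by D6 and 0 higher, beside 18.2% and 19.4% of all genes, and the median log2 fold change was -2.05. Whether this list and the synthetases differ was not tested, nor was the part of the change of medium after D0. Atf4 itself held 443, 567 and 498 CPM at D0, 204, 189 and 159 at D2, and 208, 231 and 171 by D6, and its D2 and D6 libraries overlapped (log2 -1.45 ± 0.18 at D2 and -1.30 ± 0.15 at D6, adjusted p = 5.04e-09 and 4.79e-11). Asns, for asparagine synthetase, fell over all days, from 389, 465 and 378 CPM at D0 to 139, 176 and 148 at D4 and 74.2, 65.01 and 83.9 at D6 (log2 -2.46 ± 0.19, adjusted p = 3.46e-17). Chac1 (-5.09) and Trib3 (-4.83) changed most. Atf5 (1.16 ± 0.51) and Ddit3 (0.50 ± 0.31) had values above 0 and were not called. At D4, Atf5 was called higher, the single call in that direction in this list (log2 1.66 ± 0.49, adjusted p = 0.00749), with 7, 13 and 1 reads at D0 and 5, 14 and 21 at D4, which overlapped in CPM. Of 8 tested amino acid transporter genes, 7 were lower (18.2% over all genes), with a median of -2.06, and Slc7a3 (-3.11) and Slc1a5 (-2.55) were furthest down.

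On the mitochondrial side, 1 of 4 elongation factor genes was lower, which is near the 18.2% of all genes (Tsfm, -1.07 ± 0.24, adjusted p = 2.39e-04). Tufm, which brings charged tRNA to the mitochondrial ribosome, was not called (-0.39 ± 0.20, adjusted p = 0.111). Mitochondria make glutaminyl-tRNA by an amidotransferase instead of a synthetase of their own. Its subunit genes Gatb, Gatc and Qrsl1, with Mtfmt, which formylates the initiator methionyl-tRNA, gave 0 calls among 4, at -1.14 ± 0.50, 0.77 ± 0.39, -0.26 ± 0.67 and -0.07 ± 0.47. The 4 proofreading genes that clear mischarged tRNA also gave 0 calls, with a median of -0.33.

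**Figure D5:**
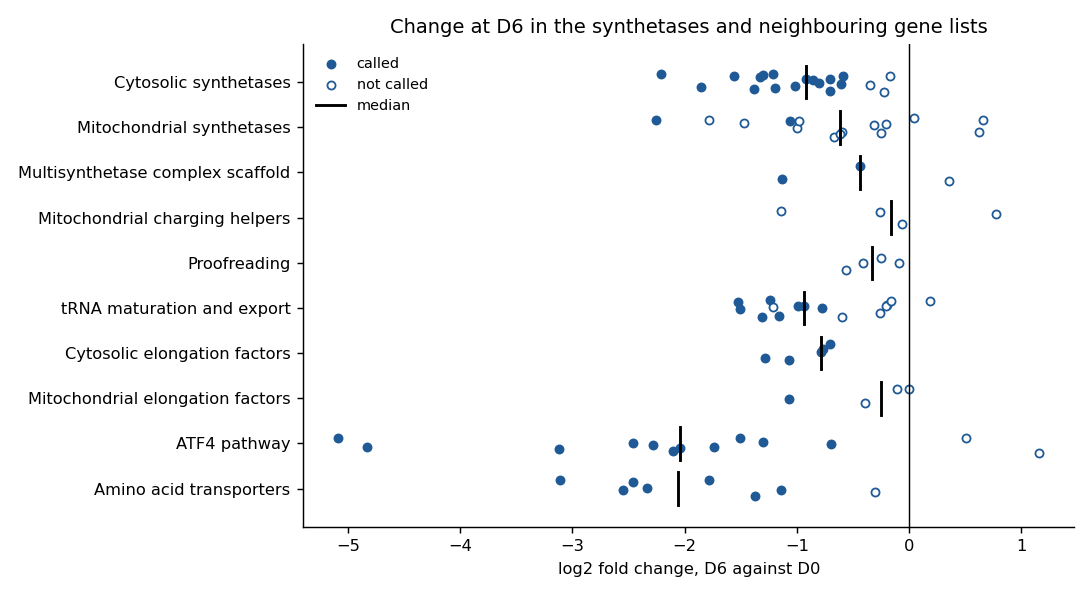
Log2 fold change at D6 against D0 of each tested gene in the synthetase lists and in lists of neighbouring function, with called genes filled and the median of a list as a bar. The ATF4 pathway and amino acid transporters have medians of -2.05 and -2.06, below the cytosolic synthetases (-0.92) and the cytosolic elongation factors (-0.78).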

How the data were processed

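Poly(A) RNA of 12 libraries was read directly on nanopores. The authors called bases, aligned reads to mm10 transcripts (Minimap2 2.20 in the submitters' processing notes), estimated poly(A) tails and assigned barcodes, and deposited 1 table with a line per read. In it, the deposited mapping quality is a score, the barcode confidence given by the authors is a fraction, and tail length is in nt, not normalized. A further table, which the authors made with DESeq2, holds log2 fold changes and adjusted p-values and was not used.

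The per-read table had 6306434 lines, of which 289329 had no library. Of 5878312 lines of class mRNA, 4625696 (78.7%) had the tag PASS, and a repeated read made up 0.0576% of these lines, which were kept. Reads on transcripts of mitochondrial DNA (313187) and of pseudogenes (38189) were set aside. Counts per gene and library were tallied from the kept reads. Abundance of 9309 genes with at least 30 reads was fitted over the 12 libraries by limma-voom (R 4.3.3, limma 3.58.1), with trimmed-mean scaling (trim of 30% for ratios and 5% for levels) and a pseudocount of 0.5 reads. Median tails (log2) and the shares of tail classes were compared with limma for genes with at least 10 reads in each library of the days compared. P-values were adjusted by Benjamini-Hochberg over all genes tested and called at 0.05, two-sided. The fits of abundance and of tails were tested on simulated data with changes set at D6. Counting error only is covered where a depth is given, since no molecular identifiers were used.

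Values per library were given for the 12 members with the largest called changes at D6 (mean of at least 20 reads in a library), for the 3 cytosolic and 3 mitochondrial members with the most reads and for members with a tail call. For the other lists, counts were given with values, mostly log2 fold changes, for the genes with the largest called changes and for Mars, Aimp1, Aimp2, Eef1e1, Atf4, Asns, Tufm and Eef1a1. Values of Aars2, Tars2 and of the uncalled members were added after they were seen. Members and lists were chosen with earlier results of these data known. Tarsl2 (25 reads) was not on the list. The promoter of Aars is not reported here. Alternatives changed the scaling, the filters, the quality limits, the depth, the model and the replicates. Python 3.11.15, numpy 2.4.6, pandas 2.3.3 and matplotlib 3.10.9 were used.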

Additional observations from a re-analysis of the deposited data

How the results depend on the processing

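No called member changed direction at D6 under any alternative. The 18 members called lower at D6 became 12 to 22 under other settings and 16 to 19 with a replicate left out. The 22, with reads of all quality tags, held 6 mitochondrial members where the count was 2. Thinning every library to the smallest gave 2 members at D2 and 6 at D4, where the counts were 5 and 14, and moved the cytosolic median at D6 from -0.92 to -1.13. With a mapping quality of at least 10 the counts were 3 at D2 and 8 at D4 and the median -1.02. limma-trend gave 9 at D4, and scaling to the library total gave 3 at D2 and a median of -0.68. Leaving out replicates gave 2 to 7 members at D2 (2 without D2 replicate 2) and 11 to 14 at D4, a cytosolic median from -1.08 to -0.86 (-1.08 without D6 replicate 2), a mitochondrial median from -0.71 to -0.36 and 0 to 1 members with a changed median tail. That tail count was 0 at a mapping quality of at least 10, where 10 members could be tested, and weighting libraries by reads gave 1 member (Qars) with a changed share of 30 to 90 nt tails. The cause of these shifts was not tested, except that thinning and the limit on mapping quality leave fewer reads. Over all genes, 3499 calls at D6 became 1178 after thinning, 2311 with limma-trend, 2201 with the mapping quality limit and 1507 with a mean of at least 20 reads, which leaves 0 mitochondrial members. Below the threshold in the main comparison, signs turned for Lars2 (0.15 thinned, 0.20 on protein-coding transcripts only, an alternative chosen after seeing the data, 0.031 scaled to the total), Farsa (0.27 at the mapping quality limit, 0.011 scaled to the total), Hars (0.066 scaled to the total), Vars2 (-0.037 with the block, and -0.21 to 0.30 over replicates left out, below 0 without D0 replicate 2, D6 replicate 1 or D6 replicate 2) and Sars2 (-0.65 to 0.0013 over replicates left out, above 0 without D6 replicate 2). Replicate numbers were not taken to pair the samples, since in no comparison with D0 did the deviations of all same-numbered libraries correlate above 0.1. They correlated at -0.14 to 0.03 for D0 and D6, and at -0.14 to 0.17 over all days, against -0.20 to 0.17 for other numbers. The same-numbered libraries of D2, D4 and D6 all correlated above 0, at 0.03 to 0.17. The fit with the replicate number as a block called 17 members at D6, without Tars2. At this depth the SEs of log2 fold changes at D6 reached 0.81 for mitochondrial and 0.32 for cytosolic members.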
